A study of Mus musculus with 12 samples.

Results

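Macrophages are tissue-resident phagocytes of the blood lineage that can be carried along when fibroblasts are prepared from whole embryos. They depend on the transcription factor PU.1 (the product of Spi1) and on the receptor Csf1r, and they are known for Fc receptors, scavenger receptors, lysosomal enzymes and the complement component C1q. The 34 macrophage and leukocyte genes described here were a named list, chosen with earlier results of these data known. A gene entered through a probe set that the platform annotation assigns to that gene alone. All 34 were measured, out of 19938 named genes in all, and each had 1 such probe set. They are read as a possible trace of leukocytes in cultures of mouse embryonic fibroblasts.

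The fibroblasts came from a cross of OG2 mice, which carry a green fluorescent reporter under the Pou5f1 promoter, with 129/sv mice, and all 12 cultures were kept in mouse embryonic stem cell medium after 2 rounds of infection. A culture received retrovirus for microRNA cluster B, microRNA cluster C or a blank control, and 6 of the 12 were also put through reprogramming with SKO. The labels do not spell SKO out, and it is read as Sox2, Klf4 and Oct4 (Pou5f1). RNA was taken 4 or 8 days after the first infection, once feeder cells had been removed per the labels, and hybridised to 1 array per combination. No combination had a replicate, every array without SKO carries a Group2 tag in its title, and the arms cannot be told apart from these groups. An identical description on all 12 samples names another preparation and day, so titles were used.

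Values are deposited log2 signals, whose medians over all probe sets lay between 4.98 and 5.07 on the 12 arrays and whose lower quartiles lay between 3.48 and 3.68. Pou5f1 was at 11.60 or higher on the 6 arrays with SKO and at 4.56 or lower on the 6 without, and Sox2 and Klf4 were also higher on every array with SKO. The mean level of 14 fibroblast markers was 9.22 to 10.59 over the 12 arrays. Col1a1 lay at 11.42 to 13.01 and Vim at 11.67 to 11.95, but Fap at 4.60 to 5.82. Spi1 and Ptprc were dim. Spi1 lay at 3.10 to 4.11, and Ptprc, which encodes the pan-leukocyte surface phosphatase CD45, at 3.56 to 4.42. Of the 34 members, 5 exceeded the array median on every array, 16 exceeded it on none, and 10 fell under the lower quartile of at least 1 array. Ccr2, a monocyte chemokine receptor gene, was under it on all 12, and its differences are those of a signal near the floor.

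The 250 bases before the start site were taken from RefSeq (GRCm38.p6) for 25 of the 34 members. The letters GAGGAA, the core of the site that PU.1 is known to bind, were searched on both strands. They were present for 14 of the 25 (56.0%), and for 25.5% of the 15614 genes on the array with a promoter in that table. Among members that were lower with SKO at day 8 the count was 8 of 14, and among the other members 6 of 11. A match is a run of letters and not a shown binding site. Shown are Lyz2, Mrc1 and C1qc, which stand for lysozyme, receptor and complement genes that fell by more than 1 log2 unit, and Itgam and Laptm5, the members that were higher with SKO. Capitals mark GAGGAA or its reverse complement TTCCTC, each read 5′ to 3′ on the strand of the gene.
Lyz2, chr10:117282273-117282522, minus strand: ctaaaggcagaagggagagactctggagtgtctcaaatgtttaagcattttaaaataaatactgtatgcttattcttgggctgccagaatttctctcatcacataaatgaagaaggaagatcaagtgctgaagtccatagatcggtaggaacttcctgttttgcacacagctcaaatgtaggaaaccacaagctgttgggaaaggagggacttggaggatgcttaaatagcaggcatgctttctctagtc
Mrc1, chr2:14229164-14229413, plus strand: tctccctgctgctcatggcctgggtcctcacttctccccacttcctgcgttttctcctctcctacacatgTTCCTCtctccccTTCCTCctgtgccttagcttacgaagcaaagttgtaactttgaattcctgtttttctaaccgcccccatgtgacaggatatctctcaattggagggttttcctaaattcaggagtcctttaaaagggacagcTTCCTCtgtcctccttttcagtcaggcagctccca
C1qc, chr4:136892915-136893164, minus strand: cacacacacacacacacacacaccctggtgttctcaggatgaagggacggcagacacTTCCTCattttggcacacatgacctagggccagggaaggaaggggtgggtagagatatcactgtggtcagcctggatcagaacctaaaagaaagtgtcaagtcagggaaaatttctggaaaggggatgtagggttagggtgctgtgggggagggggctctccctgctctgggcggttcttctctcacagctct
Itgam, chr7:128062390-128062639, plus strand: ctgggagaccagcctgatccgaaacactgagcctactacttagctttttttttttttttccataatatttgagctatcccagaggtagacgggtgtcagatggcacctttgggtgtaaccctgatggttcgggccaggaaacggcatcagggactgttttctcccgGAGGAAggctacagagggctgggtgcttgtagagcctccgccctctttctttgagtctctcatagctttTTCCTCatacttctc
Laptm5, chr4:130913066-130913315, plus strand: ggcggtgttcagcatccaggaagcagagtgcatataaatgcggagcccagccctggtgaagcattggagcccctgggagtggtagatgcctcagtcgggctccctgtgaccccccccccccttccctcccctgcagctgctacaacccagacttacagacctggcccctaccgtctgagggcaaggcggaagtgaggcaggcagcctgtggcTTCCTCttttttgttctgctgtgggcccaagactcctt
The Mrc1 stretch held 3 matches, Itgam held 2, C1qc and Laptm5 held 1 each, and Lyz2 held none. Matches thus stood before genes of both directions. In Itgam 1 match was on the strand of the gene and 1 on the other, and in Mrc1 all 3 were on the other strand. The match nearest the start began 15 bases before it in Itgam, 35 in Mrc1 and 38 in Laptm5.

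The first comparison asked how the genes differed between cultures with and without SKO at day 8. Most were lower with SKO: 19 of 34 fell, 2 rose and 13 did not pass an adjusted p of 0.05 in limma, a linear model fitted across all genes. Over all genes tested, 12.7% were called lower and 13.4% higher. The members' median log2 difference was -0.47, against -0.07 over all genes. Of the 34, 21 had all 3 arrays with SKO below all 3 without, a pattern that 24.2% of all genes showed. The blank virus array without SKO at day 8 mattered most: without it, 11 members fell, now with Spi1, and C1qb, C1qc, Cd52, Ctss, Cybb, Fcer1g, Ptprc, Trem2 and Tyrobp missed the threshold. Ctss and Fcer1g kept their call in 4 of the 12 fits that left out 1 array. In a bulk sample fewer cells of a type and less RNA per cell cannot be told apart.

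**Figure D1:**
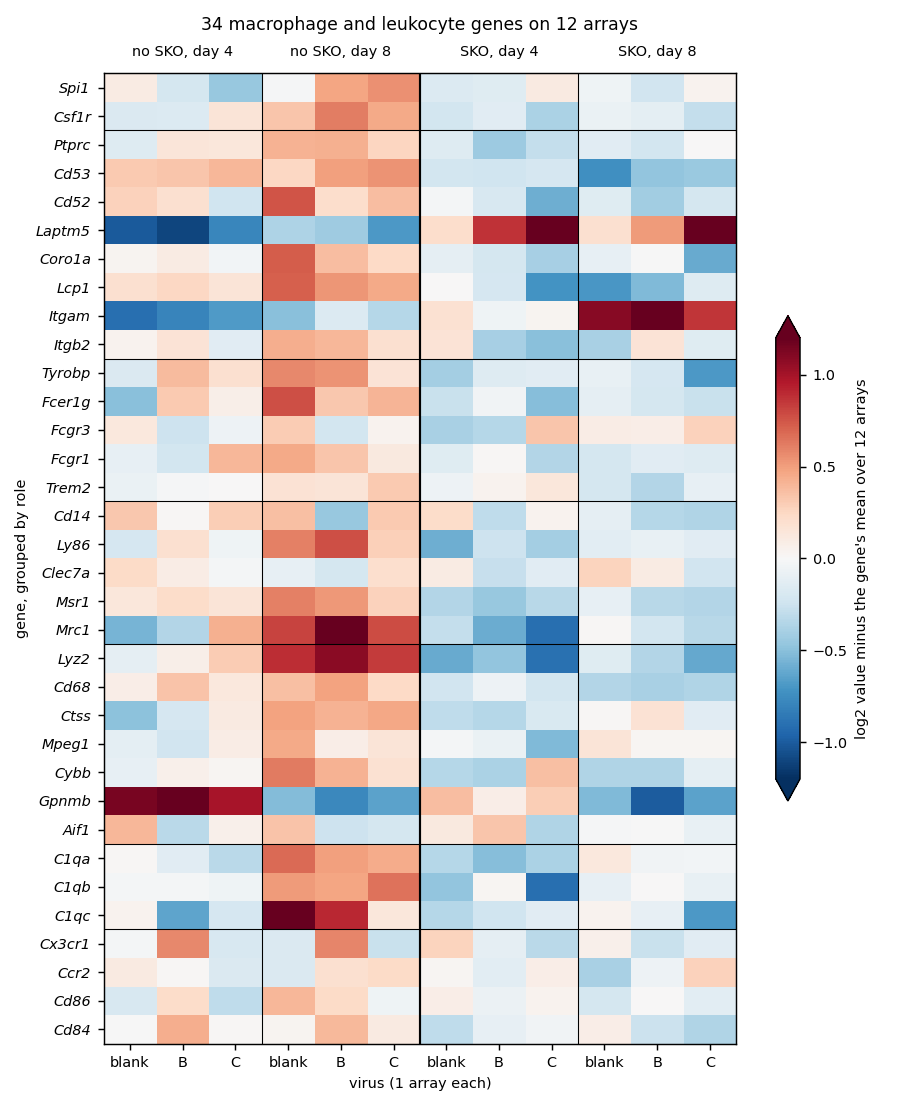
Heat map of the 34 members (rows, grouped by role) on 12 arrays (columns, by SKO, day and virus), coloured by the log2 value minus the gene's mean over the 12 arrays. Red is above and blue below that mean, and the arrays without SKO at day 8 are red for most members, while Laptm5, Itgam and Gpnmb differ from the rest.

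Lyz2, which encodes the lysozyme of macrophages and neutrophils, had the largest fall. In this text, 3 values in a row are the blank virus, cluster B and cluster C arrays, in that order. At day 8 Lyz2 was at 7.85, 8.04 and 7.80 without SKO and at 6.82, 6.61 and 6.35 with SKO. At day 4 it was at 6.85, 7.03 and 7.27 without SKO and at 6.36, 6.49 and 6.07 with SKO. The arms did not overlap on either day. The difference was -1.30 ± 0.13 at day 8 (log2 units, SE, 3 arrays against 3, limma adjusted p = 8.18e-05), or 2.46-fold lower, and -0.74 ± 0.13 at day 4 (adjusted p = 0.00329). Lyz1, a closely similar neighbour, lay at 3.29 to 4.60, and whether either probe set reads both genes was not tested.

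Of the 7 genes grouped as lysosome and phagocyte effectors, 4 fell at day 8 and none rose. Laptm5, whose product is also lysosomal, was grouped with the leukocyte surface genes and rose. Cd68, a glycoprotein gene of macrophage lysosomes, was at 6.38, 6.51 and 6.26 without SKO and 5.67, 5.63 and 5.66 with SKO at day 8. At day 4 it was at 6.10, 6.37 and 6.15 and 5.79, 5.96 and 5.80. The arms were apart on both days, by -0.72 ± 0.10 at day 8 (limma adjusted p = 0.000711) and -0.36 ± 0.10 at day 4 (adjusted p = 0.0351). Cybb, the membrane subunit gene of the phagocyte oxidase, was at 4.61, 4.41 and 4.17 without SKO and 3.63, 3.63 and 3.87 with SKO at day 8, and at 3.89, 4.05 and 4.01 and 3.65, 3.61 and 4.35 at day 4. It was separate at day 8 (-0.69 ± 0.14, adjusted p = 0.00697) and overlapped at day 4. Ctss, a cysteine protease gene of antigen-presenting cells, was at 6.43, 6.37 and 6.41 and 5.96, 6.12 and 5.81 at day 8, and at 5.46, 5.75 and 6.06 and 5.64, 5.61 and 5.77 at day 4. Its fall at day 8 was close to the threshold (-0.44 ± 0.14, adjusted p = 0.048). Mpeg1 (-0.16), Gpnmb (-0.08) and Aif1 (0.00) did not pass at day 8.

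**Figure D2:**
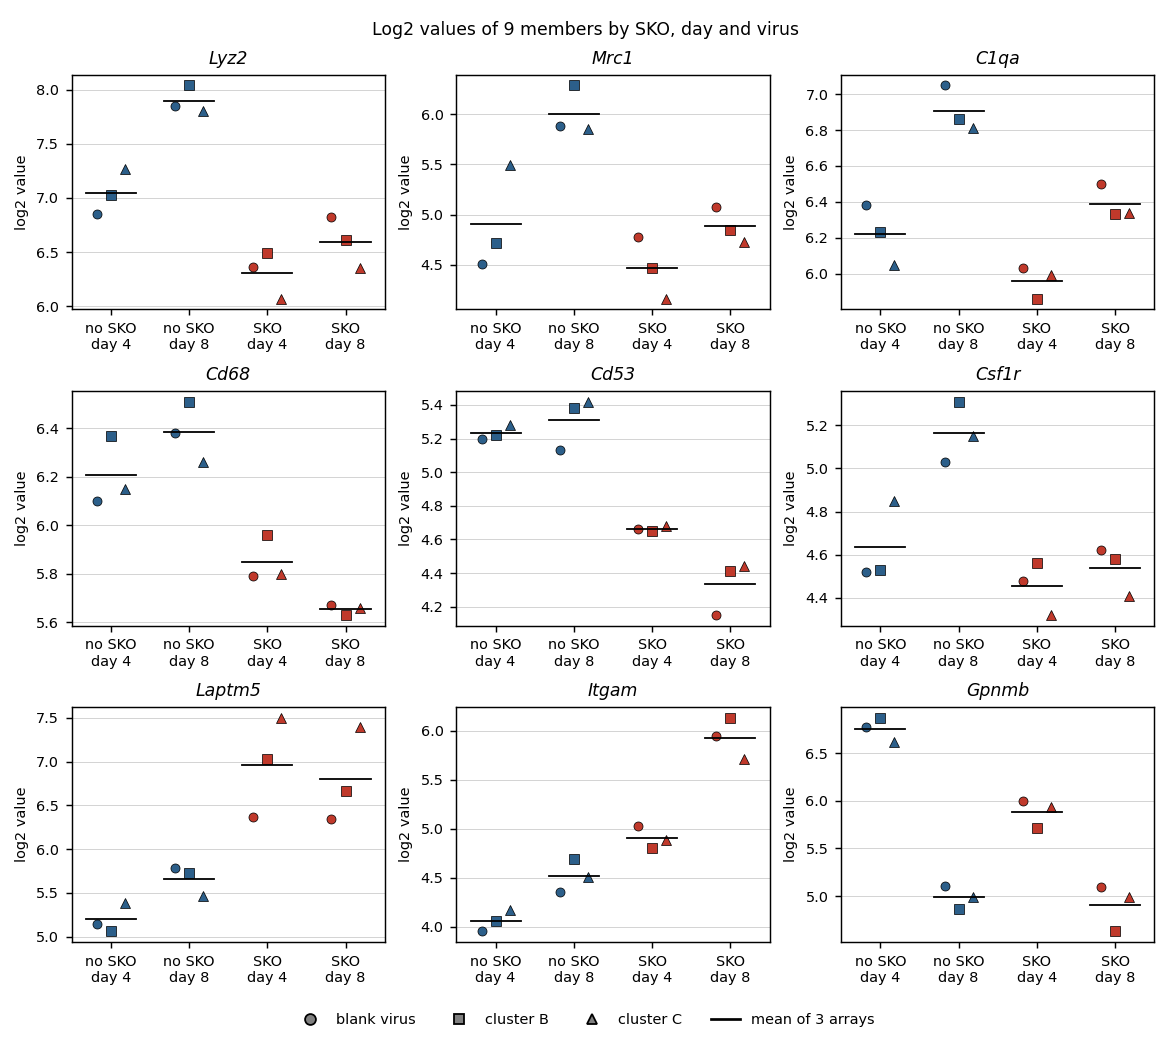
Log2 values (y axis) of 9 members by SKO and day (x axis), with 1 point per array, shapes for the virus and a line at the mean of 3 arrays. Lyz2, Mrc1, C1qa, Cd68, Cd53 and Csf1r have their highest mean without SKO at day 8, Laptm5 and Itgam are highest with SKO, and Gpnmb is highest without SKO at day 4.

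All 3 chains of C1q, the recognition component of the classical complement pathway, fell at day 8. C1qa was at 7.05, 6.86 and 6.81 without SKO and 6.50, 6.33 and 6.34 with SKO at day 8, and at 6.38, 6.23 and 6.05 and 6.03, 5.86 and 5.99 at day 4. Its arms were separate on both days, but only the day 8 difference passed (-0.52 ± 0.10, limma adjusted p = 0.00377). C1qb was at 5.21, 5.18 and 5.35 and 4.60, 4.71 and 4.61 at day 8, and at 4.68, 4.68 and 4.65 and 4.23, 4.73 and 3.80 at day 4. The day 8 arms were again apart (-0.60 ± 0.15, adjusted p = 0.0165), and cluster C with SKO at day 4 was the lowest array. For C1qc the values were 5.65, 5.33 and 4.57 against 4.47, 4.33 and 3.74 at day 8, and 4.47, 3.80 and 4.23 against 4.09, 4.19 and 4.29 at day 4. It had the largest difference of the 3 chains (-1.01 ± 0.23, adjusted p = 0.0117), with a spread of more than 1 log2 unit among the arrays without SKO at day 8. The difference at day 4 was 0.02.

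Of 5 receptors that recognise microbes or scavenge, 3 fell at day 8. Mrc1, the mannose receptor gene of tissue macrophages, was at 5.88, 6.29 and 5.85 without SKO and 5.08, 4.85 and 4.73 with SKO at day 8, and at 4.51, 4.72 and 5.49 and 4.78, 4.47 and 4.16 at day 4. Its arms were apart at day 8 (-1.12 ± 0.20, limma adjusted p = 0.00354) and overlapped at day 4 (-0.44). Msr1, a class A scavenger receptor gene, was at 4.52, 4.43 and 4.19 and 3.81, 3.58 and 3.56 at day 8, and at 4.05, 4.13 and 4.07 and 3.56, 3.46 and 3.58 at day 4. It was lower with SKO on both days, by -0.73 ± 0.11 (adjusted p = 0.00117) and -0.55 ± 0.11 (adjusted p = 0.00732). Ly86, which encodes MD-1, an accessory protein of toll-like receptor signalling, was at 4.46, 4.63 and 4.14 and 3.73, 3.77 and 3.72 at day 8, and at 3.66, 4.05 and 3.81 and 3.27, 3.61 and 3.45 at day 4. Both differences passed (-0.67 ± 0.12, adjusted p = 0.003, and -0.40 ± 0.12, adjusted p = 0.0445). The day 4 call was lost with quantile normalization (adjusted p = 0.0603) and with a mean-variance trend and robust empirical Bayes (adjusted p = 0.076), and was kept in 3 of 12 fits that left out 1 array. Neither the endotoxin co-receptor gene Cd14 (-0.34) nor the beta-glucan receptor gene Clec7a (0.07) passed.

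Activating Fc receptors and Trem2 signal through adaptors with immunoreceptor tyrosine-based activation motifs, Fcer1g and Tyrobp respectively. Both of these adaptor genes fell at day 8. Tyrobp (DAP12) was at 5.06, 5.02 and 4.65 without SKO and 4.40, 4.28 and 3.80 with SKO at day 8, and at 4.31, 4.86 and 4.68 and 4.08, 4.33 and 4.35 at day 4. Fcer1g, the common Fc receptor gamma chain, was at 5.53, 5.08 and 5.17 and 4.65, 4.55 and 4.49 at day 8, and at 4.26, 5.07 and 4.83 and 4.49, 4.72 and 4.25 at day 4. Their arms were separate at day 8 and overlapped at day 4, with differences at day 8 of -0.75 ± 0.19 (limma adjusted p = 0.0174) and -0.69 ± 0.21 (adjusted p = 0.0391). Trem2, a lipid-sensing receptor gene that uses Tyrobp, was at 5.17, 5.15 and 5.31 and 4.79, 4.65 and 4.90 at day 8, and at 4.92, 4.99 and 5.0 and 4.94, 5.04 and 5.14 at day 4. It fell at day 8 (-0.43 ± 0.10, adjusted p = 0.0119). The ligand-binding Fc receptor genes among the members, Fcgr1 (-0.47) and Fcgr3 (0.11), did not pass. For Fcgr1 the arms were nevertheless separate at day 8.

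Among 8 genes grouped as leukocyte surface and cytoskeleton, 5 fell and 2 rose at day 8. Cd53, a leukocyte tetraspanin gene, was at 5.13, 5.38 and 5.42 without SKO and 4.15, 4.41 and 4.44 with SKO at day 8, and at 5.20, 5.22 and 5.28 and 4.66, 4.65 and 4.68 at day 4. The arms never overlapped, with differences of -0.98 ± 0.11 (limma adjusted p = 0.000169) and -0.57 ± 0.11 (adjusted p = 0.00564). Lcp1, which encodes the leukocyte actin-bundling protein L-plastin, was at 5.34, 5.15 and 5.08 and 3.93, 4.10 and 4.47 at day 8, and at 4.82, 4.87 and 4.78 and 4.63, 4.42 and 3.91 at day 4. Its difference reached -1.02 ± 0.20 at day 8 (adjusted p = 0.00551) and missed the threshold at day 4 (-0.50, adjusted p = 0.129). Coro1a, an actin regulator gene of leukocytes, was at 5.40, 5.04 and 4.91 and 4.57, 4.67 and 4.07 at day 8, and at 4.70, 4.77 and 4.64 and 4.56, 4.46 and 4.27 at day 4, with a difference at day 8 of -0.68 ± 0.13 (adjusted p = 0.00412).

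Cd52, a short surface glycoprotein gene of lymphocytes and monocytes, was at 4.67, 4.13 and 4.29 without SKO and 3.77, 3.50 and 3.70 with SKO at day 8, and at 4.19, 4.11 and 3.68 and 3.89, 3.72 and 3.33 at day 4. Ptprc was at 4.41, 4.42 and 4.25 and 3.86, 3.77 and 4.00 at day 8, and at 3.84, 4.14 and 4.13 and 3.84, 3.56 and 3.71 at day 4. Both fell at day 8, by -0.71 ± 0.15 (limma adjusted p = 0.00843) and -0.48 ± 0.12 (adjusted p = 0.0162), from levels that were already dim. Itgb2, the beta chain gene of the leukocyte integrins, did not pass (-0.47, adjusted p = 0.104), although all 3 of its arrays with SKO were below all 3 without.

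Csf1r, the receptor gene on which macrophage survival depends, was at 5.03, 5.31 and 5.15 without SKO and 4.62, 4.58 and 4.41 with SKO at day 8, and at 4.52, 4.53 and 4.85 and 4.48, 4.56 and 4.32 at day 4. The arms were separate at day 8, where it fell by -0.63 ± 0.11 (limma adjusted p = 0.00369, the first value being the signed log2 difference), and overlapped at day 4. Spi1 was at 3.54, 4.03 and 4.11 and 3.51, 3.33 and 3.60 at day 8 and did not pass (-0.41 ± 0.19, adjusted p = 0.135). Without the blank virus array without SKO at day 8, the lowest of its group, it did (-0.73, adjusted p = 0.0081). Leaving out 1 array gave differences of -0.73 to -0.17, and Spi1 was under the lower quartile on 7 of the 12 arrays. None of the 4 genes for chemokine receptors and costimulation passed at day 8: Cx3cr1 (-0.16), Ccr2 (-0.14), Cd86 (-0.30) and Cd84 (-0.35).

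Laptm5 and Itgam went the other way. Laptm5, a lysosomal membrane protein gene of blood cells, was at 5.79, 5.73 and 5.47 without SKO and 6.35, 6.67 and 7.40 with SKO at day 8, and at 5.15, 5.06 and 5.38 and 6.37, 7.03 and 7.50 at day 4. All 6 arrays with SKO lay above all 6 without, and the differences were 1.14 ± 0.14 at day 8 (limma adjusted p = 0.000285) and 1.77 ± 0.14 at day 4 (adjusted p = 3.65e-05). Itgam, which encodes the integrin chain CD11b of myeloid cells, was at 4.35, 4.69 and 4.51 and 5.94, 6.13 and 5.71 at day 8, and at 3.95, 4.06 and 4.17 and 5.03, 4.80 and 4.88 at day 4. It too was higher with SKO on every array, by 1.41 ± 0.12 (adjusted p = 4.5e-05) and 0.84 ± 0.12 (adjusted p = 0.00152). The partner chain Itgb2, without which CD11b is not carried to the cell surface, did not rise. Another 3 probe sets that the annotation assigns to both Itgam and a ribosomal protein gene were not used.

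At day 4, of the 34 members 6 fell (Cd53, Ly86, Msr1, Lyz2, Cd68 and Gpnmb), 2 rose (Laptm5 and Itgam) and 26 did not pass, where 9.40% of all genes were called lower and 9.52% higher. The median of the members was -0.23, against -0.04 over all genes. Without the cluster C array without SKO at day 4, 3 fell, and Cd68 kept its call in 4 of the 12 fits that left out 1 array. That 10 members had all arrays with SKO below all without at this day compares with 17.9% of all genes.

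The next comparison followed the cultures without SKO from day 4 to day 8, and shares the day 8 arrays with the contrast above. Of the 34 members 8 rose and 1 fell, where 4.05% of all genes were called higher and 4.63% lower. The median was 0.32, against 0.01 over all genes. Mrc1 rose by 1.10 ± 0.20 (limma adjusted p = 0.0139), or 2.14-fold, although its cluster C array was already at 5.49 on day 4. C1qc rose by 1.01 ± 0.23 (adjusted p = 0.0297), Lyz2 by 0.84 ± 0.13 (adjusted p = 0.00596), C1qa by 0.69 ± 0.10 (adjusted p = 0.00411) and Ctss by 0.65 ± 0.14 (adjusted p = 0.0253). Smaller rises were those of Ly86 (0.57), C1qb (0.57) and Csf1r (0.53). The C1qb call was lost with quantile normalization (adjusted p = 0.0729), equal array medians (0.0599) and no virus-by-SKO terms (0.0562), and was kept in 4 of 12 fits that left out 1 array. Day 8 was above day 4 in all 3 matched pairs for 23 of 34 members (67.6%), and for 22.2% of all genes.

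The number of rises rested on few arrays. It was 2 without either cluster B array without SKO, 3 without either blank virus array, and 5 with the arm fitted alone. Lyz2 and C1qa kept their call in all 12 fits that left out 1 array. Each array left out also removes 1 of 4 residual degrees of freedom.

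**Figure D3:**
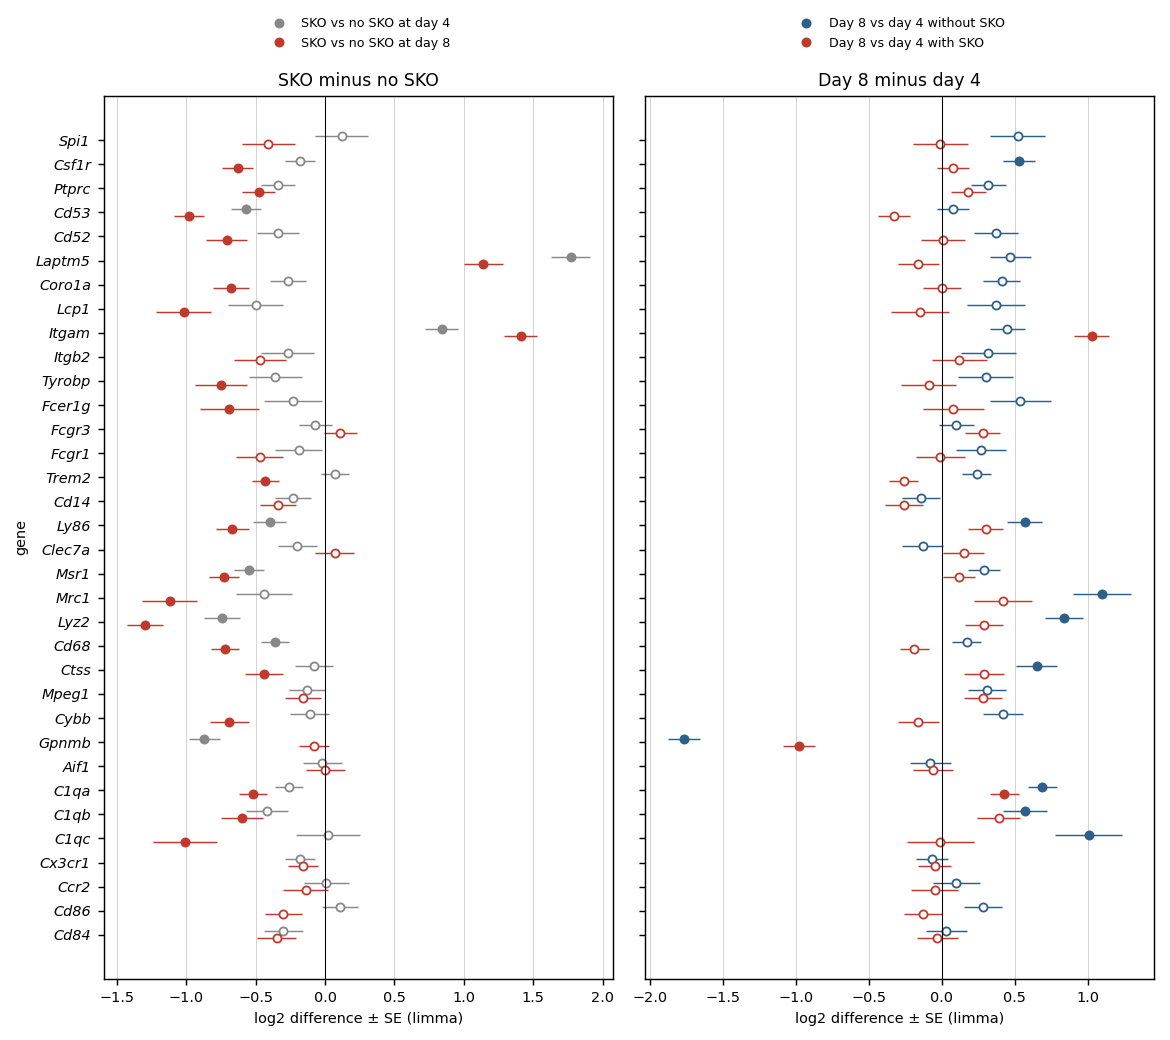
Log2 differences (x axis, points, with bars of 1 SE from limma) of the 34 members (y axis) for SKO minus no SKO on the left and day 8 minus day 4 on the right, filled where the adjusted p is under 0.05. On the left 19 members are filled below 0 at day 8 and 6 at day 4, and on the right 8 are filled above 0 without SKO and 2 with SKO.

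The same comparison was made with SKO. Between day 4 and day 8, 2 rose (C1qa and Itgam), 1 fell (Gpnmb) and 31 did not pass, where 5.24% of all genes were called higher and 3.66% lower. C1qa rose by 0.43 ± 0.10 (limma adjusted p = 0.0254), a call lost without any 1 of the 6 arrays with SKO, and Itgam by 1.03 ± 0.12 (adjusted p = 0.00157). Lyz2 was at 0.29 and Mrc1 at 0.42, both short of the threshold. The difference between the arms in this day change was itself tested and passed for 1 member, Gpnmb, in a comparison that called 1.97% of all genes higher. Over all 34 members the day change with SKO lay below that without SKO in 28, with a median of -0.32. Over all genes it lay below in 52.7%, with a median of -0.02. The values were -1.03 ± 0.33 for C1qc (adjusted p = 0.144), -0.68 ± 0.29 for Mrc1 (adjusted p = 0.269) and -0.56 ± 0.18 for Lyz2 (adjusted p = 0.149). Of the 34, 12 had an unadjusted p under 0.05, as did 17.3% of all genes.

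Gpnmb, a transmembrane glycoprotein gene of macrophages, osteoclasts and melanocytes, fell with time in both arms. Without SKO it was at 6.77, 6.87 and 6.62 at day 4 and 5.11, 4.86 and 4.99 at day 8. With SKO it was at 6.0, 5.71 and 5.93 and 5.10, 4.63 and 4.99. The arms were apart at day 4 (-0.87 ± 0.11, limma adjusted p = 0.000632) and met at day 8. The fall with time was -1.77 ± 0.11 without SKO (adjusted p = 5.42e-05) and -0.98 ± 0.11 with SKO (adjusted p = 0.00113), signed log2 differences. The difference between these changes was 0.79 ± 0.16 (adjusted p = 0.034), and that call was lost in each of the 12 fits that left out 1 array. None of 10 melanocyte genes passed for the day change without SKO, a count near the 4.05% of all genes called higher and 4.63% lower. Their mean level without SKO at day 4 was 3.94 to 4.02, below the array medians. Of 11 osteoclast genes 1 rose, where 4.05% of all genes were called higher: the cysteine protease gene Ctsk (0.54), which fibroblasts also express.

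The microRNA clusters were compared with blank virus in each arm, and limma called no member in any of the 4 comparisons. With SKO, cluster C called 0.0150% of all genes higher and 0.00502% lower, and cluster B 0.00502% in each direction. Without SKO neither cluster called a gene. At an unadjusted p under 0.05 there were 6 members for cluster C and 4 for cluster B with SKO, and 4 and 5 without. The shares of all genes at that level were 6.82% and 3.08% with SKO, and 4.72% and 5.86% without. The member medians were -0.11 and -0.02 with SKO and -0.03 and 0.03 without. The differences between the arms in these effects called no member either.

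Laptm5 was the member with the largest cluster effect. With SKO its cluster C arrays were at 7.50 and 7.40 on days 4 and 8, its cluster B arrays at 7.03 and 6.67, and its blank virus arrays at 6.37 and 6.35. Cluster C was thus highest and blank virus lowest on both days. The difference for cluster C was 1.09 ± 0.17 (limma adjusted p = 0.213), and it passed with a mean-variance trend and robust empirical Bayes (adjusted p = 0.0126). For cluster B it was 0.49 ± 0.17 (adjusted p = 1). Without SKO the differences were -0.05 for cluster C and -0.08 for cluster B. Cx3cr1, the fractalkine receptor gene, was higher with cluster B and no SKO at 5.35 and 5.36 than on the blank virus arrays at 4.75 and 4.60 (0.68 ± 0.14, adjusted p = 0.71). With SKO its cluster B difference was -0.35, and both were short of the threshold.

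Other genes of the lineage were read as a wider list of 54 measured myeloid genes. At day 8, 17 fell with SKO and 6 rose, with a median of -0.30, where 12.7% of all genes were called lower and 13.4% higher. Adgre1, which encodes a classical surface marker of mouse macrophages, was named after its values were seen: it was at 5.01, 4.85 and 4.67 without SKO and 4.20, 4.02 and 3.73 with SKO (-0.85 ± 0.15, limma adjusted p = 0.00323). The largest changes were those of Fcgr2b, the inhibitory Fc receptor gene (2.26 ± 0.13, adjusted p = 3.31e-06), Lilrb4a, an inhibitory receptor gene of myeloid cells (-1.42), Alox5ap, which serves leukotriene synthesis (-1.15), and the toll-like receptor gene Tlr2 (0.95). Fcgr2b was at 4.63, 4.36 and 4.13 without SKO and 6.68, 6.83 and 6.40 with SKO at day 8. By contrast, 46 of the 54 had a difference below 0, as did 58.7% of all genes. Whether the related Fc receptor probe sets read one another's transcripts was not tested. Without SKO, 7 of the 54 rose from day 4 to day 8 and none fell, where 4.05% of all genes were called higher and 4.63% lower. The dectin-2 gene Clec4n (0.83) and the coagulation factor gene F13a1 (0.91) were among those that rose. With SKO, F13a1 went from 4.28, 4.08 and 3.96 at day 4 to 5.98, 5.61 and 5.46 at day 8. Those day 8 values lay above the 4.84, 5.25 and 4.54 without SKO, opposite to most of the list.

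With SKO at day 8, 12.7% of all genes were called lower and 13.4% higher. Of 27 measured lymphocyte genes, 1 fell and 2 rose with SKO at day 8, with a median of -0.13: the natural killer cell gene Nkg7 (-0.46), and the T cell genes Cd3g (0.68) and Cd2 (0.61). None changed with time without SKO by limma, and 1 had an unadjusted p under 0.05, a level reached by 24.7% of all genes. Of 22 granulocyte and mast cell genes none fell with SKO at day 8 and 3 rose, Ly6g (2.01), the lactoferrin gene Ltf (1.51) and the stem cell factor receptor gene Kit (0.55). That count of rises was near the 13.4% of all genes called higher. The mean log2 level of the 34 members was 4.78 to 4.94 on arrays without SKO at day 8, 4.53 to 4.59 without SKO at day 4, and 4.37 to 4.48 with SKO on either day. For lymphocyte genes it was 3.75 to 3.79, 3.70 to 3.89 and 3.55 to 3.73.

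**Figure D4:**
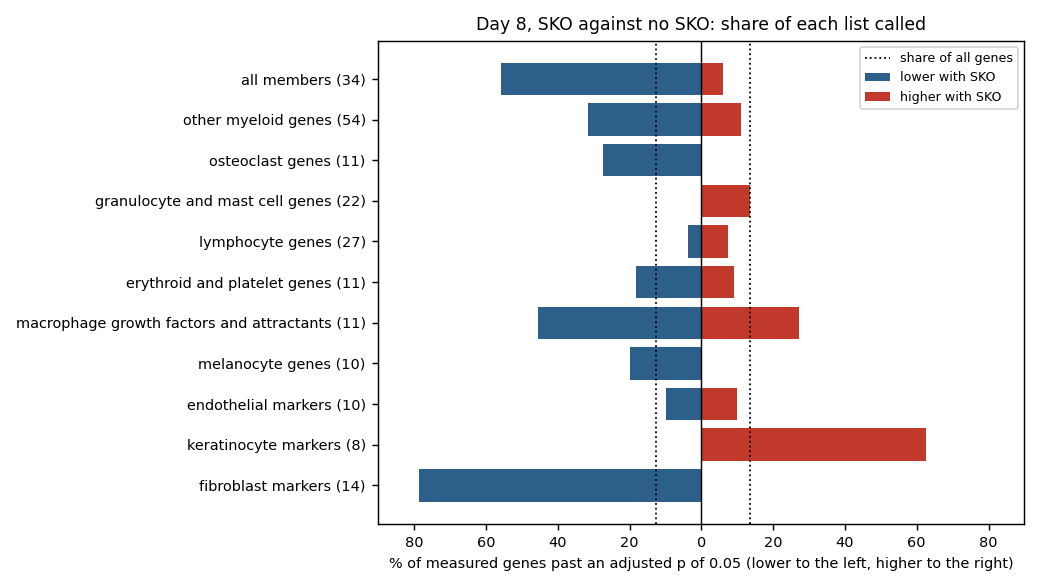
Share of each gene list (y axis, with the number of measured genes) that was lower (to the left) or higher (to the right) with SKO at day 8 at an adjusted p under 0.05 (x axis, percent), beside the share of all genes (dotted lines). Of the members 55.9% were lower, of other myeloid genes 31.5%, of lymphocyte genes 3.70% and of fibroblast markers 78.6%.

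Genes of the fibroblasts themselves moved between the arms as well. Over all genes at day 8, 12.7% were called lower with SKO and 13.4% higher. With SKO at day 8, 11 of 14 fibroblast markers fell and none rose, with a median of -1.12, led by the matrix genes Lum (-3.01) and Postn (-2.64). Their mean level was 9.30 to 9.47 with SKO and 10.45 to 10.59 without SKO at day 8. Without SKO 4 of the 14 rose with time, where 4.05% of all genes were called higher: Postn (1.66), Lum (1.58), Dcn (1.40) and Fap (0.82). Of 8 genes listed as keratinocyte markers, 5 rose with SKO at day 8, led by Epcam (3.49), Dsp (2.82), Krt14 (2.42) and Cdh1 (2.24). Epcam, Dsp and Cdh1 are shared by epithelial cells in general. Trp63 (0.23), Krt1 (0.27) and Krt10 (-0.07) did not pass. Of 10 endothelial markers 1 rose and 1 fell, and of 11 erythroid and platelet genes 1 rose and 2 fell. The part of these changes in the members' values was not tested.

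Growth factors and chemokines that act on macrophages were read on the same arrays. Csf1 and Il34 encode the ligands of Csf1r. At day 8 Csf1 was at 8.73, 8.73 and 8.93 without SKO and 8.04, 8.04 and 7.83 with SKO, and fell by -0.83 ± 0.12 as a signed log2 difference (limma adjusted p = 0.0012). Il34 was at 5.70, 5.67 and 5.35 without SKO and 7.98, 8.10 and 8.07 with SKO, and rose by 2.48 ± 0.13 (adjusted p = 2.59e-06), or 5.56-fold. The arms did not overlap for either ligand, and they went opposite ways. Csf1 rose with time in both arms, by 0.60 without SKO and 0.57 with SKO. Cx3cl1, the ligand of Cx3cr1, was lower with SKO at day 8 (-1.11 ± 0.12, adjusted p = 0.000145), as were Cxcl12 (-2.38) and Ccl5 (-1.18). The monocyte attractants Ccl2 (0.69, adjusted p = 0.00109) and Ccl7 (0.55) were higher. Of the 11 genes of this list, 5 fell at day 8 and 3 rose. Csf2 was among the falls, at the edge of the threshold (-0.52) and near the floor at 2.77 to 3.67. Over all genes 12.7% were called lower and 13.4% higher.

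**Figure D5:**
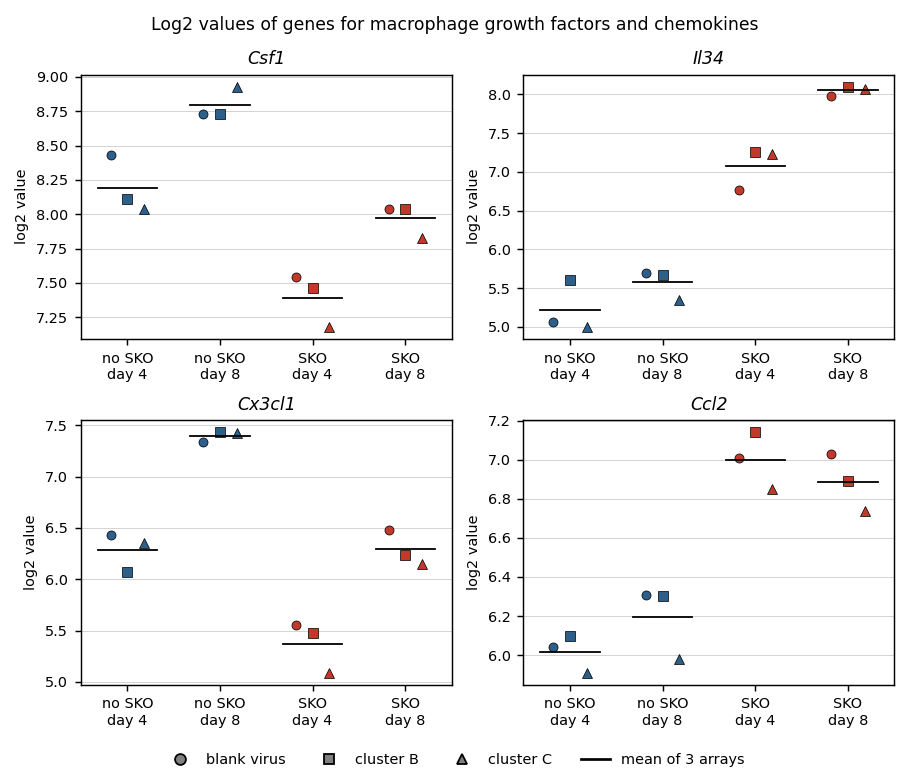
Log2 values (y axis) of 4 genes for macrophage growth factors and chemokines by SKO and day (x axis), with 1 point per array, shapes for the virus and a line at the mean of 3 arrays. Csf1 and Cx3cl1 are lower with SKO on both days, and Il34 and Ccl2 are higher.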

How the data were processed

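Gene expression was measured on 12 whole-transcript arrays, 1 for each combination of SKO, virus and day. For 28853 probe sets the authors deposited log2 values. The submitters' processing notes name RMA and Partek without version or role. The genome build is not given in the sources used here. The log2 scale was read from the values, 0.916 to 14.034. Because RMA equalises the arrays' distributions, shifts common to most genes are hidden.

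The platform annotation gave 21789 probe sets 1 gene, 1621 several and 5443 none. Where a gene had several probe sets the brightest on average was used, leaving 19938 genes. Symbols matched RefSeq for 21698 probe sets, and 0 changed. Members and gene lists were chosen with earlier results of these data known. Of 192 other genes listed, 178 were measured.

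One limma 3.58.1 fit (R 4.3.3) over 12 arrays held SKO, day and virus, with SKO-by-day and SKO-by-virus terms: 8 coefficients, 4 residual and 4.94 prior degrees of freedom. The labels do not say which cultures were independent. The p-values set each difference only against how far virus effects differed between days within an arm, a spread that may be technical. Calls are at a Benjamini-Hochberg adjusted p under 0.05 over all genes, in 11 comparisons. Per-array values were given for members called in at least 1 comparison and for the 6 with the highest means, and up to 4 called genes with the largest change were named per other list. Spi1, Cx3cr1, Adgre1, Lyz1, Col1a1, Vim, Trp63, Krt1, Krt10, Csf1, Csf2, Ccl2 and Ccl7 lie outside this rule, chosen once values had been seen.

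In simulated data, 200 of 19938 genes were changed for SKO at day 8. The fit recovered 52% of changes of 0.58 log2 units and 100% of those of 1 or more, with 6.9% false calls. The data had 2674 genes called higher and 2525 lower, so these rates may not carry over. The number of arrays limits precision. Python 3.11.15 and matplotlib 3.10.9 were used for tables and figures.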

Additional observations from a re-analysis of the deposited data

Results flagged for a closer look

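Gpnmb was the member whose day change differed between the arms by a test of that difference. The change from day 4 to day 8 was -1.77 without SKO and -0.98 with SKO, and the change with SKO minus that without was 0.79 (SE 0.16, limma adjusted p = 0.034). That call was lost in each of the 12 fits that left out 1 array, with values of 0.67 to 0.86. Day 8 was lower in 3 of 3 matched pairs in each arm.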

How the results depend on the processing

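Single members had 42 called differences. Without genes that stayed under 5 on every array, 34 of them were tested. With each arm fitted alone 12 were tested, of which 4 missed the threshold. None of those tested reversed in any of 7 alternatives or in 12 fits that each left out 1 array. In the latter, 400 of 504 kept their side of the threshold and 104 missed it, 16 of them without the blank virus array without SKO at day 8, where each fit also had 1 residual degree of freedom fewer. Leaving out 1 array, members lower with SKO numbered 3 to 7 at day 4 and 11 to 20 at day 8. Members higher at day 8 than day 4 numbered 2 to 9 without SKO and 1 to 2 with SKO, and for the difference between these changes 0 were higher and 0 to 1 lower (Mrc1, without either cluster C array without SKO). With each arm fitted alone, 5 members rose with time without SKO and 1 with SKO. Without genes that stayed under 5 on every array, 19 members were tested. Of these, Csf1r, Tyrobp, Coro1a, Lcp1, C1qb and C1qc reached 5 only on arrays without SKO at day 8. The medians, -0.63 for SKO at day 8 and 0.45 for the day change without SKO, are thus shaped by the filter and add no support. In that setting 2 members fell with time with SKO, and 1 (Trem2) had a lower day change with SKO. With a mean-variance trend and robust empirical Bayes, 2 members had a lower day change with SKO (Laptm5 and Lyz2) and 1 was higher with cluster C and SKO (Laptm5). The cause of these shifts was not tested, apart from what follows by construction: fewer genes or arrays, and the filter's choice of members. Quantile normalization and equal array medians left 19 members lower and 2 higher with SKO at day 8. Both ended the C1qb call for the day change without SKO, and quantile normalization also ended the Ly86 call at day 4. The labels give no replicate numbers to use as a block, and arrays were matched by virus through the virus terms of the fit. Signal over background limits 15 members that stayed under 5 on every array.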
